A study of Homo sapiens with 9 samples.

Results

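Cells of the line PANC-1 were exposed to the small molecule BRD7552 for 72 h or for 6 h, and the 2 times were set against each other across all genes. The comparison used the 3 arrays labelled as 72 h and the 3 labelled as 6 h, 6 of the 9 Affymetrix expression arrays of the series, chosen by their titles alone. PANC-1 is an established line that was derived from a human pancreatic ductal carcinoma. BRD7552 was given at 5 uM at both times, a dose described as the smallest with full induction of PDX1, the homeobox factor needed for pancreas formation. The other 3 arrays hold PANC-1 cells that received the solvent DMSO, for which the labels give no time. They served as the level from which early and late movement was read, so time in culture and time of exposure cannot be told apart. Replicates are not stated to be separate cultures, and p-values then measure the spread between these arrays, which may be technical. The question of the comparison was which changes present at 6 h were larger, similar or smaller at 72 h, and which genes moved after 6 h.

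Several systems named below share a common logic. Shortage of amino acids and other stresses activate kinases that phosphorylate the translation factor eIF2, which favours translation of the transcription factor ATF4. ATF4 switches on amino acid synthesis enzymes, transporters and tRNA synthetases, and also brakes such as SESN2, DDIT4 and TRIB3 that dampen mTORC1 and AKT signalling. Endoplasmic reticulum chaperones belong to neighbouring branches of the same stress network and are driven by ATF6 and XBP1. Cholesterol synthesis genes answer to SREBP factors, which INSIG1 holds back when sterols are plentiful. Interferon-stimulated genes share a promoter element that binds ISGF3 and IRF factors.

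The unit throughout is the deposited signal of the brightest probe set of each gene, on a linear scale, and differences are on the log2 scale with the standard error of the limma estimate. A gene was called at a limma adjusted p (Benjamini-Hochberg over 12678 genes) below 0.05, and "rose" and "fell" are used for called genes. The median signal per array ran from 16.2 to 18.8, and precision is limited by how few arrays there are. In the upper quartile 72 h replicates 2 and 3 read lower than the others, at 97.5 and 99.7 against 112 to 119. Replicates differed more at 72 h, with a median standard deviation per gene of 0.129 log2 units, against 0.0750 at 6 h and 0.0667 in DMSO. For ACTB the control probe sets at the 3' and 5' ends stood in a ratio of 2.07 to 2.21 at 72 h and of 1.74 to 2.05 elsewhere. These values run alongside every difference between the times, and their part in it was not tested. The PANC-1 markers KRT7, KRT8, KRT18, KRT19, SOX9 and VIM all lay above the filter on low values. Their summed signal was 51330 in DMSO, 51120 at 6 h and 44810 at 72 h. Of 6 leukocyte markers 1 lay above the filter, as did 1 of 5 endothelial, 2 of 7 stromal fibroblast, 1 of 3 acinar and 1 of 3 red cell and hepatocyte markers. Their summed signals at 6 h and 72 h were 64.5 and 62.8, 57.6 and 65.5, 665 and 611, 39.6 and 36.2, and 75.4 and 65.8, in that order.

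Between 6 h and 72 h most of the large differences were falls. In these bulk samples fewer cells of a kind and less RNA per cell cannot be told apart. Limma called 3037 of 12678 genes (24.0%), of which 923 were higher at 72 h (7.28% of all genes) and 2114 lower (16.7%), so that 69.6% of the called genes were lower. The lower share depended on the scaling. It was 65.8% with arrays centred on their medians (609 higher, 1173 lower), 53.2% after quantile normalization (1521 and 1731) and 51.8% after cyclic loess (1587 and 1707). Without 72 h replicate 1 the calls numbered 807 higher and 3193 lower. Over all genes the median difference was -0.060, which became -0.031, 0.0042 and 0.0082 under these scalings. Most called differences were modest, with a median size of 0.33 log2 units. At least 2-fold differences were found for 65 genes (0.513% of all), 10 higher and 55 lower. Signals at 6 h and 72 h were fully separate for 2903 called genes, a separation seen in 33.7% of all genes.

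Far fewer genes had moved by 6 h than by 72 h. Limma called 60 genes at 6 h against DMSO (0.473%), 46 of them higher and 14 lower, and 3378 at 72 h against DMSO (26.6%, with 8.33% higher and 18.3% lower). These comparisons share the DMSO arrays, and the 6 h arrays enter both the choice of the 60 early genes and their later difference, so the values are not independent. At 72 h, 56 of the 60 early genes were called against DMSO in their 6 h direction, 0 in the other direction, and 4 were not called. By the test between the times, 30 had grown, 23 could not be told apart and 7 had faded. For the 30 that grew, the median size of the change from DMSO was 0.436 log2 units at 6 h and 0.802 at 72 h. For the 23 that could not be told apart it was 0.423 and 0.501, and for the 7 that faded 0.467 and 0.0868. Among those that grew, the further change equalled or passed the 6 h change for 11 genes.

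The sizes of these classes moved when single arrays were left out. Genes called at 6 h numbered 28 and 34 without 6 h replicates 2 and 3, and 31, 38 and 34 without DMSO replicates 1, 2 and 3. Genes that grew numbered 19, 12 and 11 without 6 h replicates 1, 2 and 3, and 14 without either of DMSO replicates 1 and 3. Those not told apart were 14 without 6 h replicate 2 or DMSO replicate 1 and 13 without DMSO replicate 2. Those that faded were 2 without 6 h replicate 2 or DMSO replicate 3, 3 without DMSO replicates 1 or 2, and 13 without 72 h replicate 1. The step between the times was more stable, and of the 30 that grew 21 to 28 were still called in their direction with any 1 array left out.

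**Figure D1:**
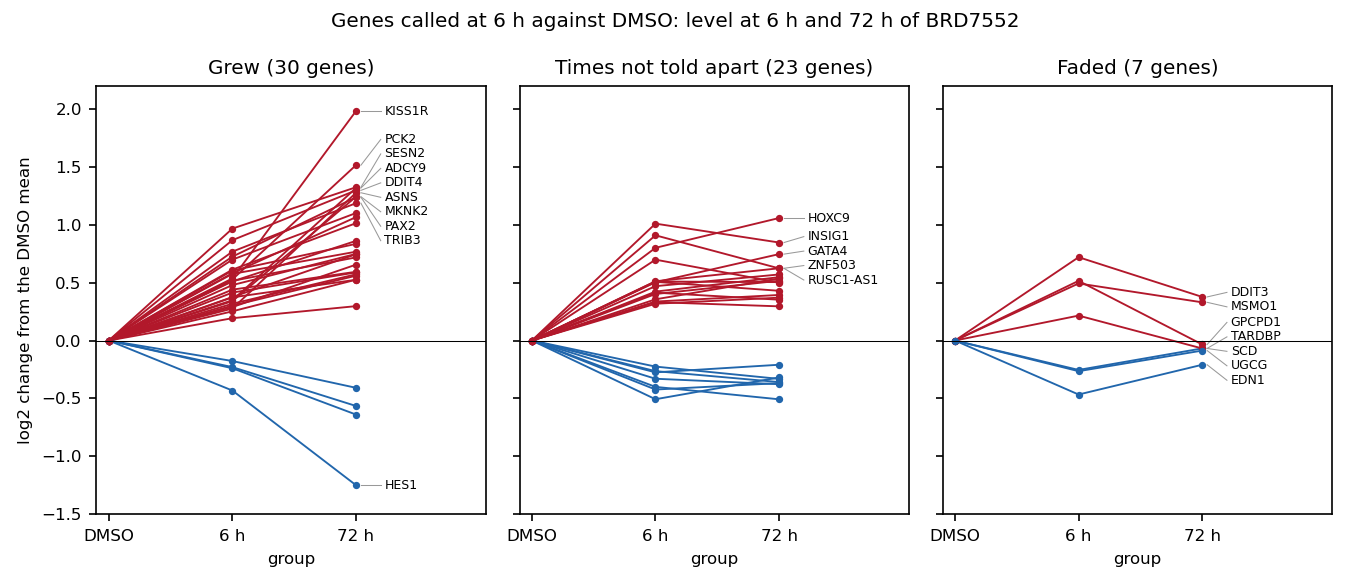
The y axis gives the log2 change from the DMSO mean and the x axis the group (DMSO, 6 h or 72 h of BRD7552), with 1 line per gene for the 60 genes called at 6 h, red for rises and blue for falls. The 30 genes that grew fan out at 72 h, up to 1.98 for KISS1R and down to -1.25 for HES1, and the 7 that faded return toward 0. The 23 not told apart mostly shift less between the times, some away from 0 and some back.

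The early rises that grew most were receptor, metabolic and stress genes. KISS1R, the receptor for kisspeptin, had signals of 97.8, 100.3 and 94.9 in DMSO, 137, 144 and 144 at 6 h and 458, 343 and 367 at 72 h. The 3 groups lay apart, and the rise between the times was 2.73-fold (log2 1.45 ± 0.10, SE, n = 3 arrays per group, limma adjusted p = 2.1e-07). Equal values on 6 h replicates 2 and 3, for KISS1R and for ADCY9 below, can make the standard error too small. ADCY9, an adenylyl cyclase that makes cyclic AMP, rose by a further 0.97 (SE 0.067) after 0.35 at 6 h, while a second ADCY9 probe set above the filter stood at 0.11 and was not called. MKNK2, a kinase that phosphorylates the translation factor eIF4E, rose by 0.90 (SE 0.044) after 0.34 at 6 h. PAX2, a developmental factor of the kidney, had already risen by 0.73 at 6 h and gained 0.51 (SE 0.059), and its other probe set stood at 0.17 and was not called. BCL2L11, which encodes the pro-apoptotic protein BIM, rose by 0.58 and then by 0.49 (SE 0.080), a later step that was 0.24 without a call with probe sets averaged.

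Of the 30 early genes that grew, which are 0.237% of all genes, 9 are among the 36 tested genes of the ATF4 list. The list was chosen with earlier results of these data known. ASNS, asparagine synthetase, had signals of 1429, 1497 and 1540 in DMSO, 1828, 1752 and 1828 at 6 h and 3653, 3596 and 3571 at 72 h. The rise from 6 h to 72 h was 2.001-fold (log2 1.00 ± 0.039, limma adjusted p = 5.2e-10). The 6 h replicates 1 and 3 both read 1827.7, and such equal values can make the standard error and p too small. PCK2, the mitochondrial phosphoenolpyruvate carboxykinase, had signals of 111, 117 and 113 in DMSO, 169, 172 and 151 at 6 h and 334, 326 and 314 at 72 h. It rose by 0.53 at 6 h and by a further 0.99 (SE 0.084). For these enzymes the later step was the larger, whereas the mTORC1 and AKT brakes had moved further by 6 h.

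DDIT4, an inhibitor of mTORC1, had signals of 494, 502 and 492 in DMSO, 905 on each of the 3 arrays at 6 h and 1181, 1244 and 1234 at 72 h. It rose by 0.87 at 6 h and by 0.43 (SE 0.045) between the times, and the equal 6 h values can make this error too small. SESN2, a sestrin that senses leucine and restrains mTORC1, rose by 0.97 and then by 0.36 (SE 0.099). TRIB3, a pseudokinase that binds AKT, rose by 0.77 and then by 0.42 (SE 0.051), the stress cytokine gene GDF15 by 0.61 and 0.40, and CHAC1, which degrades glutathione, by 0.70 and 0.40 (SE 0.127). ATF4 itself rose by 0.44 at 6 h and by 0.15 (SE 0.051) between the times. The second step was not called for CHAC1 without any 1 of the 6 h arrays or without 72 h replicates 1 or 3 (0.32 to 0.42). It was not called for SESN2 without 6 h replicate 3 (0.29) or 72 h replicate 3 (0.33), nor for ATF4 without 6 h replicates 1 or 3, 72 h replicate 1 (0.088) or DMSO replicates 1 or 3. Other probe sets of SESN2 and TRIB3 stood at 0.17 and 0.040 and were not called.

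Of the 40 listed ATF4 and amino acid response genes, 36 lay above the filter. Between the times 20 rose, 2 fell and 14 were not called, with a median difference of 0.19 beside -0.060 over all genes. With the probe sets of each gene averaged, 10 rose and 2 fell. At 6 h 12 of the 36 had risen against DMSO, beside 0.363% of all genes, and at 72 h 30 had, beside 8.33%. Besides ASNS and PCK2 the largest rises between the times were those of PHGDH, the first enzyme of serine synthesis (1.10 ± 0.081), and SLC7A11, the cystine importer (0.93 ± 0.089). Of the other SLC7A11 probe sets 1 rose by 0.78 and 1 stood at 0.17 without a call. PHGDH had signals of 224, 212 and 204 at 6 h, close to the 172 to 204 of DMSO, and 438, 467 and 463 at 72 h. PSAT1, the next enzyme of serine synthesis, rose by 0.78 (SE 0.044). The falls were DDIT3, which encodes the stress factor CHOP (fell by 0.34), and ALDH18A1, a proline synthesis enzyme (fell by 0.22, and not called without 6 h replicate 3, at -0.19). DDIT3 had signals of 351.5, 355 and 370 in DMSO, 561, 623 and 591 at 6 h and 494, 442 and 463 at 72 h, so the 6 h arrays stood highest and the 72 h arrays still lay above DMSO. Among 17 aminoacyl-tRNA synthetases, which charge tRNAs with amino acids, 0 had been called at 6 h, where the median change was 0.031. Between the times 10 rose, 0 fell and 7 were not called (median 0.22), led by AARS1 (0.46 ± 0.065), EPRS1 (0.40 ± 0.099), IARS1 (0.38 ± 0.043) and GARS1 (0.37 ± 0.033). The call for EPRS1 ended without 72 h replicates 1 (0.32) or 3 (0.34).

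**Figure D2:**
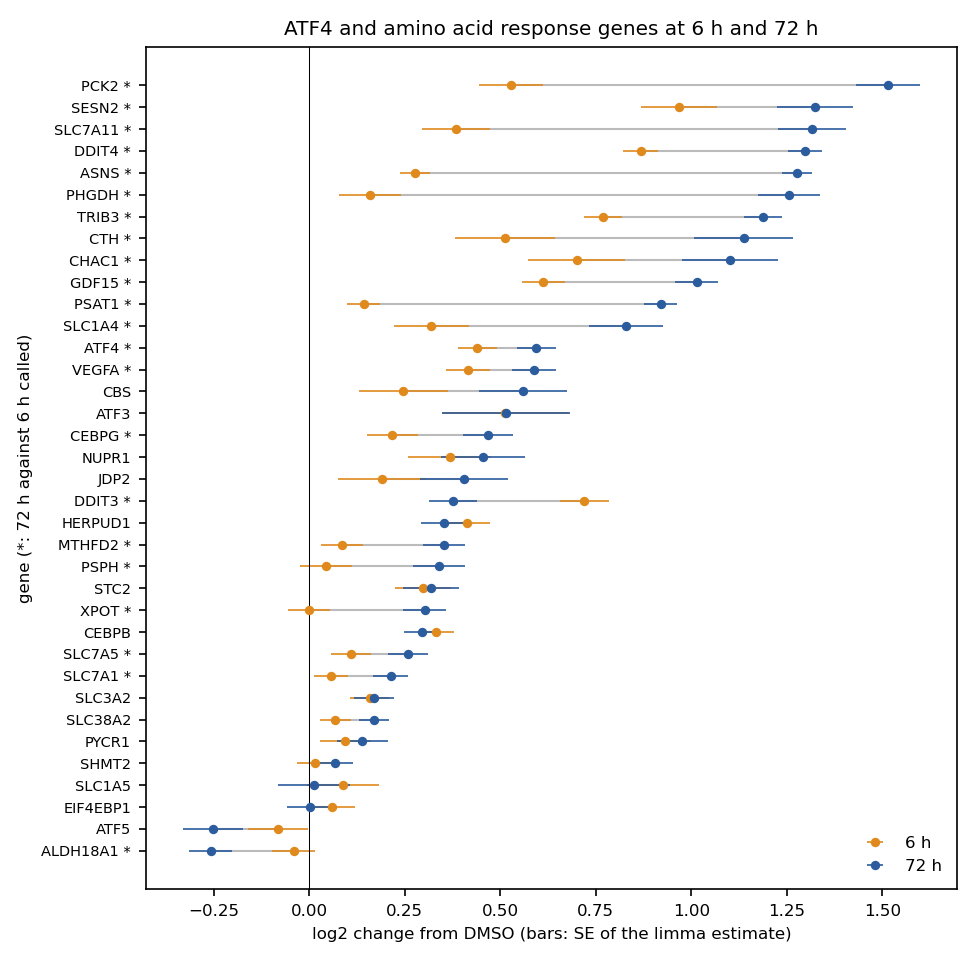
The x axis gives the log2 change from DMSO with the standard error of the limma estimate as bars, at 6 h (orange) and at 72 h (blue), for each of the 36 ATF4 and amino acid response genes above the filter, ordered by the 72 h change, and a star marks genes called between the times. PHGDH and ASNS move far to the right between the times, SESN2 and DDIT4 had covered most of the distance by 6 h, and DDIT3 moves back to the left.

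The genes of this block can be set beside their promoters, since ATF4 and CHOP bind a short composite element. The element was searched as TGATGNAAN, or NTTNCATCA on the other strand, in the 250 bases before each gene's start (RefSeq, GRCh38.p14). It occurred in 3.18% of 27305 promoters and in 1.41% of the 10271 tested genes that have one. Among the early rises it was found in 2 of 19 promoters of genes that grew and in 1 of 10 of genes whose times could not be told apart. The windows are shown because they set ASNS and CHAC1, which grew, beside HERPUD1, which did not move between the times by the test, with the element in capitals and 15 bases on each side. A match is a description of the letters and no evidence of binding.
ASNS, chr7:97872453-97872491, minus strand: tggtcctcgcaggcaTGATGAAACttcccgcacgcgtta
CHAC1, chr15:40953246-40953284, plus strand: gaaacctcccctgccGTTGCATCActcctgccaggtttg
HERPUD1, chr16:56931950-56931988, plus strand: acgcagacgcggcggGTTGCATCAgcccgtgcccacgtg
The ASNS element lies 68 to 60 bases before the start. Over the late genes the share was 2.08% of 625 promoters of genes that rose and 1.36% of 1476 promoters of genes that fell, near the share of the tested genes.

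Of the other early rises that grew, several are regulators of development and growth. The posterior patterning factors HOXC6, HOXC10 and HOXB6 rose by 0.60, 0.52 and 0.58 at 6 h and by 0.23, 0.20 and 0.19 more by 72 h. The later step of HOXB6 was not called with any 1 array left out other than 72 h replicate 3, and that of HOXC10 not without 6 h replicate 3 or 72 h replicate 3. Smaller steps between the times were those of the Notch pathway gene NRARP (0.35), the Polycomb-associated corepressor BCOR (0.37), the isocitrate dehydrogenase IDH1 (0.37), the autophagosome gene MAP1LC3B (0.27), MIDN (0.27), GLIS2 (0.26), the laminin gene LAMA5 (0.25), the angiogenic factor VEGFA (0.17), the glycosyltransferase OGT (0.15) and SOWAHC (0.10). With the probe sets of a gene averaged, MIDN and VEGFA turned to -0.12 and -0.046 and OGT stood at 0.015 without a call. The later step of SOWAHC was not called with any 1 array left out other than 72 h replicate 3. That of VEGFA was not called without any 1 of the 6 h arrays, 72 h replicates 2 or 3 or DMSO replicate 3, that of OGT not without 6 h replicates 2 or 3, and that of MIDN not without 6 h replicates 1 or 3. The 4 early falls that grew were HES1, STAMBPL1, CCL2 and JUN. HES1, a repressor downstream of Notch, had signals of 535, 575 and 579 in DMSO, 417 on each of the 3 arrays at 6 h and 275, 223 and 216 at 72 h. The groups lay apart, and HES1 fell by 0.43 on the log2 scale at 6 h and by 0.82 (SE 0.082) between the times, with another probe set falling by 0.81. The equal 6 h values can make the standard error of HES1 too small. NRARP and HES1, both targets of Notch, thus moved in opposite directions at both times. The deubiquitinase gene STAMBPL1 fell by 0.40 between the times, the chemokine gene CCL2 by 0.34 and the AP-1 subunit gene JUN by 0.23. With probe sets averaged STAMBPL1 and JUN stood at -0.24 and -0.21 without a call. JUN was also not called with arrays centred on their medians (-0.20). Its other probe sets above the filter ran from -0.28 to -0.12 and were not called.

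The 23 early genes whose times could not be told apart kept their 6 h direction at 72 h, each called against DMSO at both times. For 6 of them the 95% interval of the difference lay within 0.5 times the 6 h change on either side of 0, namely INSIG1, TSC22D3, IDI1, HERPUD1, CEBPB and ID2, and for these the data bound how much they could have moved. TSC22D3, the glucocorticoid-induced leucine zipper, had signals of 93.3, 112 and 108 in DMSO, 151, 141 and 152 at 6 h and 156, 135 and 152 at 72 h. The arrays of the 2 times overlapped and the difference was -0.0053 (95% interval -0.22 to 0.21). IDI1, an isomerase of isoprenoid synthesis, had signals of 788 to 803 in DMSO, 1166, 1089 and 1136 at 6 h and 1158, 1051 and 1009 at 72 h, with a difference of -0.077 ± 0.053. CEBPB, a stress-responsive bZIP factor, stood at 0.33 and 0.30 above DMSO at the 2 times. ID2, whose product blocks DNA binding by basic helix-loop-helix factors, fell by 0.42 at 6 h and by 0.37 at 72 h against DMSO. HERPUD1, a component of endoplasmic reticulum-associated degradation, stood at 0.41 and 0.35.

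INSIG1, the sterol sensor partner that retains SREBP, depends on the probe set. Its brightest had signals of 216, 269.5 and 230 in DMSO, 390, 488 and 574 at 6 h and 475, 403 and 407 at 72 h. The arrays of the times overlapped, and the difference was -0.16 (95% interval -0.42 to 0.092). Of its other probe sets 1 fell between the times by 0.42 (adjusted p = 0.019 over all probe sets) and 1 stood at -0.35 and was not called. For the other 17 genes the interval was too wide to call the level held. HOXC9 stood at 0.80 at 6 h and 1.06 at 72 h, and HOXB8 at 0.70 and 0.50, differences of 0.26 and -0.20 that just missed the threshold (limma adjusted p = 0.053 and 0.059). GATA4, an endoderm factor, stood at 0.50 and 0.75 (between the times its other probe sets ran from -0.18 to 0.44, not called), and the antisense transcript RUSC1-AS1 at 0.91 and 0.62. SKIL, a repressor of SMAD signalling, fell by 0.51 at 6 h and by 0.32 at 72 h against DMSO. Its course turned with the probe set, since another SKIL probe set fell further between the times by 0.53, from -0.24 to -0.77 against DMSO, and 1 more stood at -0.46 without a call. Of the 23, 13 had a 72 h estimate further from DMSO than the 6 h estimate.

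The 7 genes that faded held lipid, stress and signalling genes. GPCPD1, a phosphodiesterase of glycerophosphocholine breakdown, had signals of 177, 177 and 157 in DMSO, 214, 266 and 252 at 6 h and 164, 183 and 152 at 72 h. The 6 h arrays lay above all others and the 72 h arrays within the DMSO range or near it, and GPCPD1 fell by 0.55 (SE 0.102) between the times, while another probe set fell by 1.08 and 1 more stood at -0.11 without a call. SCD, stearoyl-CoA desaturase, had signals of 1506, 1531 and 1490 in DMSO, 1779, 1740 and 1738 at 6 h and 1456, 1456 and 1405 at 72 h. It fell by 0.28 (SE 0.038) between the times to a level not told from DMSO (-0.069). The size depended on the probe set, since the 3 other SCD probe sets above the filter fell by 1.04, 1.12 and 1.14 between the times, from 0.18, 0.099 and 0.25 above DMSO to -0.87, -1.02 and -0.89 at 72 h. MSMO1, a methylsterol oxidase, fell by 0.16 between the times and still lay 0.33 above DMSO, a fade that was called neither without 6 h replicates 2 or 3, nor without any 1 of the 72 h arrays, nor without DMSO replicates 1 or 3. In the other direction, EDN1, which encodes endothelin 1, had fallen by 0.47 at 6 h and rose by 0.26 (SE 0.061) between the times. The other EDN1 probe sets disagreed, with 1 falling by 0.43 and 1 at 0.091 without a call. TARDBP, which encodes the RNA-binding protein TDP-43, and UGCG, glucosylceramide synthase, rose by 0.19 and 0.18 and were not told from DMSO at 72 h. The call for UGCG ended without 6 h replicate 2 (0.14). Neither TARDBP nor UGCG was called with arrays centred on their medians, or with probe sets averaged (0.069 and 0.17).

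Most genes that differed between the times had not been called at 6 h. Late genes were taken as those called at 72 h against 6 h and, in the same direction, against DMSO, and not called at 6 h. There were 2523 of them, 737 that rose and 1786 that fell. At 6 h, 165 had an unadjusted p under 0.05 in the same direction and 23 in the opposite one. For 1555 the 95% interval of the 6 h change lay within 0.25 log2 units on either side of 0. That limits the 6 h change without showing it absent, since the median size of called differences between the times was 0.33. For the remainder a larger early change could not be told from none. No share over all genes was computed for these 6 h counts, so they do not set late genes apart from other genes. Another 799 genes were called at 72 h against DMSO and could not be told apart between the times. Of at least 2-fold differences, 63 belonged to late genes, 8 rises and 55 falls, and for 12 of these the 6 h interval lay within that bound.

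**Figure D3:**
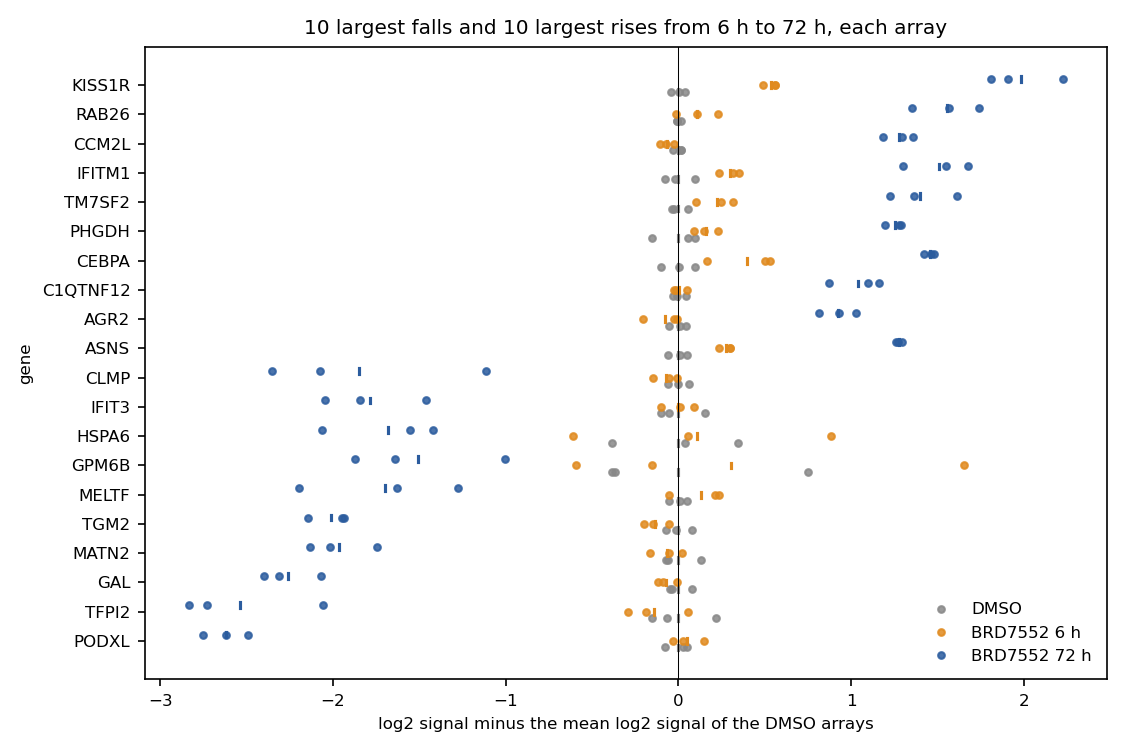
The x axis gives the log2 signal of each array minus the DMSO mean, for the 10 genes with the largest rises and the 10 with the largest falls from 6 h to 72 h (y axis), with points for the 3 arrays of each group and short vertical bars for group means. The 6 h points of PODXL, GAL and TFPI2 sit near 0, close to the DMSO points, while the 72 h points lie below -2, and the 6 h and DMSO points of GPM6B and HSPA6 are widely scattered.

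The largest late falls were those of surface, secreted and matrix proteins. PODXL, the sialomucin podocalyxin, had signals of 1033, 1106 and 1125 in DMSO, 1066, 1107 and 1207 at 6 h and 193, 161 and 177 at 72 h. The 6 h arrays overlapped with the DMSO arrays, the highest reading above them, and at 72 h PODXL stood at 0.157 of its 6 h level (log2 -2.67 ± 0.070, limma adjusted p = 4.3e-12). TFPI2, which inhibits proteases such as plasmin, had signals of 87.7, 112 and 94.1 at 6 h and 25.8, 16.2 and 15.04 at 72 h. The last values lie near the filter on low values of 17.8, and TFPI2 fell by 2.40 (SE 0.19). GAL, the neuropeptide galanin, had signals of 642, 678 and 629 at 6 h and 163, 137 and 130 at 72 h, and fell by 2.19 (SE 0.080).

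Further falls among the 10 largest were those of MATN2, a matrix filament protein (-1.90 ± 0.12), TGM2, a transglutaminase (-1.88 ± 0.079), MELTF, melanotransferrin (-1.83 ± 0.18), the interferon-stimulated gene IFIT3 (-1.78 ± 0.12), and CLMP, an adhesion molecule (-1.78 ± 0.22). Another probe set above the filter stood at -0.42 for MELTF and at -0.48 for CLMP, and neither was called. GPM6B and the heat shock gene HSPA6 also ranked among the 10 largest falls, at -1.81 and -1.79, and their 6 h arrays were far apart. HSPA6 read 63.5, 178.9 and 100.96 at 6 h and 36.3, 23.2 and 33.04 at 72 h, and GPM6B 92.2, 436 and 124.9 at 6 h and 38.0, 44.5 and 69.2 at 72 h. The call for GPM6B ended with weights by group and without the mean-variance trend.

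The largest late rises spanned vesicle, sterol and differentiation genes. RAB26, a small GTPase of secretory vesicles, had signals of 80.3, 78.9 and 79.0 in DMSO, 85.5, 93.0 and 78.6 at 6 h and 265, 235 and 203 at 72 h. The 72 h arrays lay far above the rest, and RAB26 rose 2.72-fold (log2 1.45 ± 0.11), with another probe set rising by 1.46. TM7SF2, a sterol reductase, had signals of 71.3, 74.96 and 64.6 at 6 h and 184, 155 and 140.5 at 72 h, a rise of 1.18 (SE 0.12). CEBPA, a bZIP factor of liver and fat cell differentiation, had signals of 18.7, 20.1 and 21.4 in DMSO, 28.4, 22.5 and 29.0 at 6 h and 55.8, 53.8 and 55.2 at 72 h. It was dim in DMSO and stood 0.40 above it at 6 h without a call, then rose by 1.05 (SE 0.14). CCM2L rose by 1.34 (SE 0.083), although its other probe set stood at 0.059 and was not called. AGR2, a disulfide isomerase of secretory epithelia, rose by 1.01 (SE 0.060), C1QTNF12 by 1.04, the ciliary gene CYS1 by 0.99 and NIBAN1, a stress-induced gene, by 0.97. Another NIBAN1 probe set stood at 0.43 and was not called.

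A few late genes read on opposite sides of DMSO at the 2 times. Of the 2523 late genes 23 had an unadjusted limma p under 0.05 the other way at 6 h. At 6 h 0 of the 23 were called. An unadjusted threshold lets some genes pass without a change, and no share over all genes was computed, so the count is no result. Of the 23, 17 fell after reading above DMSO and 6 rose after reading below it. Among the 17 were MANF, PLIN2, HSD17B7, LRP8, TMEM97 and SQLE, named here after their values were seen. The 17 also held SH3BP5, TGFB1I1, B4GALNT1, UPP1, SND1, NBPF1 and ANXA4, so the named genes do not stand for all. MANF, a secreted chaperone of the endoplasmic reticulum, had signals of 975.4, 974 and 961 in DMSO, 1179, 1089 and 1065 at 6 h and 663, 588 and 531 at 72 h. The 3 groups did not overlap, with the 6 h arrays highest and the 72 h arrays lowest, and MANF fell by 0.91 (SE 0.068) between the times. PLIN2, which coats lipid droplets, had signals of 310.2 to 311 in DMSO, 408, 364 and 390 at 6 h and 226, 200.2 and 193 at 72 h, and also fell by 0.91 (SE 0.076). HSD17B7 and SQLE are enzymes of sterol synthesis, LRP8 is a lipoprotein receptor, and TMEM97 is a sterol-regulated membrane protein. They fell by 0.66, 0.26, 0.61 and 0.48 between the times. The fall of SQLE was not called with arrays centred on their medians.

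Gene lists were read against the shares over all genes, 7.28% higher and 16.7% lower, and a share near these is no result about a list. For 98 of the genes chosen for naming and called between the times the array holds other probe sets above the filter, and for 51 of these at least 1 was called in the same direction. The sign of each list median given below was the same under the 3 other scalings unless stated.

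**Figure D4:**
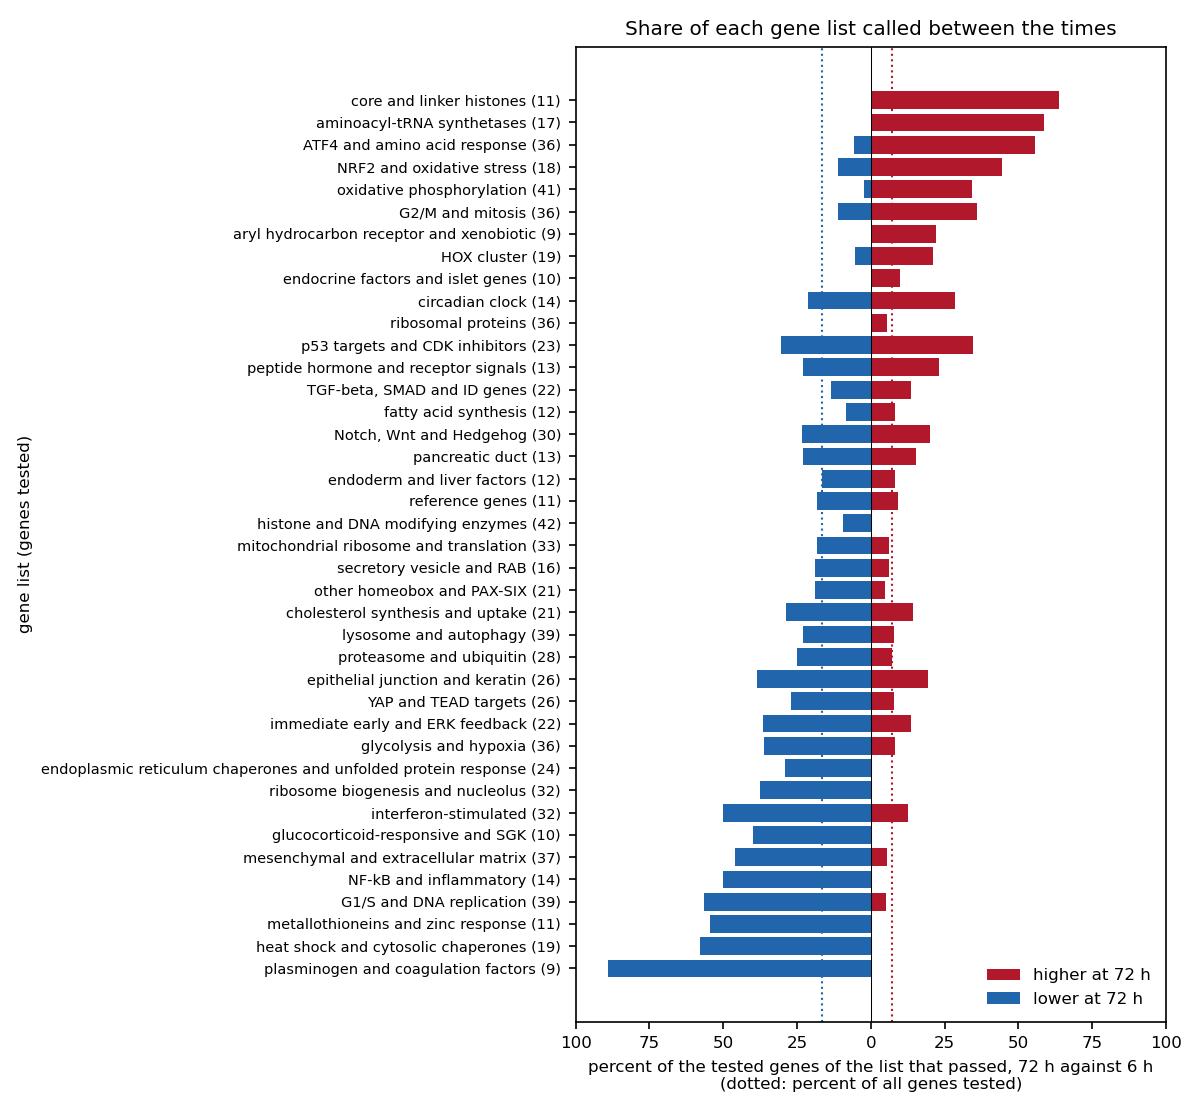
Bars give, for each gene list with at least 9 genes tested (y axis, number tested in brackets), the percent of those genes called higher (red, right) or lower (blue, left) at 72 h than at 6 h, with dotted lines at the shares over all genes, 7.28% and 16.7%. Histones, tRNA synthetases and ATF4 genes reach furthest to the right, and plasminogen and coagulation factors, heat shock, metallothionein and G1/S genes furthest to the left.

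Endoplasmic reticulum chaperones did not follow the ATF4 list. Of 24 chaperone and unfolded protein response genes, 0 rose between the times, 7 fell and 17 were not called, with a median of -0.066, close to that of all genes. After quantile normalization 2 rose and 7 fell, and after cyclic loess 2 rose and 8 fell. Besides MANF the largest falls were those of DNAJB9 (fell by 0.50), DNAJB11 (fell by 0.43) and EIF2AK3, which encodes the sensor kinase PERK (fell by 0.37). Cytosolic chaperones held falls and no rise. Of 19 heat shock genes, 0 rose and 11 fell (median -0.14), a count that was 4 with arrays centred and 5 without the trend. Among them were DNAJB1 (fell by 0.46), FKBP4 (0.38), the small heat shock protein gene HSPB1 (0.37) and HSP90AB1 (0.26). HSPA6 is not on this list. Oxidative stress genes driven by NRF2 numbered 18, of which 8 rose and 2 fell (median 0.11), or 4 and 0 with arrays centred. SLC7A11 led them, followed by the reductase genes PIR (0.36), TXNRD1 (0.33) and NQO1 (0.32), and HMOX1, heme oxygenase, fell by 0.15. The fall of HMOX1 was not called with arrays centred on their medians. Of 11 metallothionein and zinc response genes, 0 rose and 6 fell (median -0.16), or 3 with arrays centred, with the zinc importer SLC39A10 down by 0.53 and MT1X by 0.30.

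Sterol genes went both ways after the early rises. Of 21 genes of cholesterol synthesis and uptake, 3 had risen at 6 h against DMSO (INSIG1, IDI1 and MSMO1), beside 0.363% of all genes. Between the times 3 rose, 6 fell and 12 were not called, with a median of -0.11. With arrays centred 1 rose and 3 fell. STARD4, a cholesterol transport protein, had signals of 87.8, 89.6 and 87.4 in DMSO, 111, 133 and 145 at 6 h and 83.2, 55.7 and 66.5 at 72 h. The 6 h arrays stood above and the 72 h arrays below DMSO, and STARD4 fell by 0.93 (SE 0.143) between the times without being called against DMSO at either. PMVK, phosphomevalonate kinase, fell by 0.31. Against these falls TM7SF2 rose by 1.18, and LSS, lanosterol synthase, by 0.21, the latter not called without 6 h replicates 2 or 3 or 72 h replicate 3. In the fatty acid list of 12, SREBF1, the master regulator of lipid synthesis, rose by 0.68, SCD fell and 10 were not called.

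Cell cycle genes split by phase. Of 39 G1/S and DNA replication genes, 2 rose, 22 fell and 15 were not called, with a median of -0.20, and with arrays centred 12 fell and 1 rose. ORC1, the largest subunit of the origin recognition complex, had signals of 142, 166 and 158 at 6 h, around the 144 to 152 of DMSO, and 117, 94.8 and 76.1 at 72 h. It fell by 0.72 (SE 0.132), GINS3 and GINS2 of the replicative helicase fell by 0.61 and 0.53, and CDC45 of the same helicase fell by 0.56. Another GINS2 probe set above the filter stood at 0.040 and was not called. RFC5, a clamp loader subunit, rose by 0.46, but another of its probe sets fell by 0.52, so its direction was not settled. In contrast, of 36 G2/M genes 13 rose and 4 fell (median 0.086), or 5 and 4 with probe sets averaged and 8 and 3 without the trend. KIF11 and KIF20A, mitotic kinesins, rose by 0.35 and 0.31, TOP2A, topoisomerase II, by 0.33 and PTTG1, securin, by 0.31, while UBE2C, a mitotic ubiquitin-conjugating enzyme, fell by 0.31. The call for TOP2A ended without 6 h replicate 1 (0.24), 72 h replicate 1 (0.27) or 72 h replicate 3 (0.27). With its probe sets averaged TOP2A stood at 0.051 and was not called. Of 11 histone genes, 7 rose and 0 fell (median 0.28), led by the linker histone H1-2 (0.71 ± 0.088), H2AC6 (0.67), H2BC4 (0.67) and H2BC5 (0.48). H1-2 had signals of 388, 432 and 445 at 6 h and 813, 612 and 651 at 72 h, with no overlap.

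The 23 genes of the p53 and CDK inhibitor list went both ways, with 8 that rose and 7 that fell, or 5 and 6 without 6 h replicate 3. Their median of -0.10 turned positive after quantile normalization (0.020) and cyclic loess (0.0082). PLK3, a stress kinase, fell by 0.87, PHLDA3, a repressor of AKT, by 0.68, and the repair factor DDB2 by 0.43. With probe sets averaged PLK3 and PHLDA3 stood at -0.37 and -0.35 without a call, and their other probe sets above the filter, at -0.055 and -0.18 for PLK3 and -0.030 for PHLDA3, were not called. The CDK inhibitor genes differed, since CDKN1B (p27) rose by 0.56 and CDKN1C (p57) by 0.47 while CDKN1A (p21) fell by 0.38. The rise of CDKN1C was not called without any 1 of the 6 h arrays, without 72 h replicates 1 (0.32) or 2 or without DMSO replicates 1 or 3. With its probe sets averaged CDKN1C stood at 0.17 without a call. Its other probe sets above the filter ran from -0.096 to 0.24 and were not called.

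Interferon-stimulated genes fell more often than they rose, and IFITM1 was a large exception. Of 32 tested, 16 fell, 4 rose and 12 were not called, with a median of -0.25, and 0 had been called at 6 h. IFIT3, an antiviral tetratricopeptide protein, had signals of 324, 375 and 315 in DMSO, 315, 358 and 339 at 6 h and 122, 93.8 and 81.5 at 72 h. It fell by 1.78 (SE 0.12), with another probe set falling by 1.68. IFIT2 fell by 1.36 (SE 0.133), OASL, a relative of the oligoadenylate synthetases, by 0.96 and the ISG15 ligase gene HERC5 by 0.85. IFITM1, a membrane protein that blocks viral entry, had signals of 366, 325 and 338 in DMSO, 437, 403 and 427 at 6 h and 1097, 1003 and 844 at 72 h. Its groups lay apart at each step, and it rose by 1.21 (SE 0.083), the opposite of the IFIT genes. The ubiquitin-like modifier ISG15 rose by 0.51, and IRF7, the factor that amplifies interferon output, by 0.47.

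The element shared by these genes was searched as GAAA, any 2 bases, GAAA, or TTTC, any 2 bases, TTTC on the other strand, over the same 250 bases. It occurred in 2.10% of tested promoters and in 3.07% of all. Of the interferon list it was in 8 of 11 promoters of genes that fell, 3 of 3 of genes that rose and 5 of 11 of genes not called, so that its presence did not separate the directions. The windows show the element in capitals for IFIT3 and IFIT1, which fell, and for IFITM1 and ISG15, which rose.
IFIT3, chr10:89327860-89327899, plus strand: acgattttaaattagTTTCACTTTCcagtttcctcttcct
IFIT1, chr10:89392492-89392531, plus strand: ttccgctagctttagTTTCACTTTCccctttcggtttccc
IFITM1, chr11:313985-314024, plus strand: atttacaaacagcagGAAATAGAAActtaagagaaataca
ISG15, chr1:1013375-1013414, plus strand: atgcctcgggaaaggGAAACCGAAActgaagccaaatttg
IFIT1 fell by 0.59 (SE 0.063), with signals of 748, 768 and 814 at 6 h and 571, 504 and 479.5 at 72 h. Over the late genes the element was in 2.56% of promoters of genes that rose and 2.64% of those that fell.

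Inflammatory and growth factor genes held more falls than rises. Of 14 NF-kB and inflammatory genes, 0 rose and 7 fell, with a median of -0.22. After quantile normalization 3 rose and 6 fell, and after cyclic loess 4 rose and 6 fell. IL11, a cytokine of the IL-6 family, had signals of 120, 107 and 118 in DMSO, 83.9, 80.6 and 91.9 at 6 h and 44.8, 35.4 and 34.7 at 72 h. The 3 groups lay in a descending order without overlap, although the 6 h change of -0.43 was not called, and IL11 fell by 1.17 (SE 0.127) between the times, with its other probe set at -0.37 and not called. CXCL8, interleukin 8, fell by 0.89, IL32 by 0.74 and CXCL1 by 0.62. Of 22 immediate early and ERK feedback genes, 3 rose and 8 fell (median -0.11), or 0 and 5 with arrays centred. The counts were 4 and 7 after quantile normalization (median -0.0017) and 5 and 7 after cyclic loess. The AP-1 subunit gene FOSL2 fell by 0.69, the ERK feedback inhibitor SPRY4 by 0.64, the EGF receptor ligand HBEGF by 0.63 and the ERK phosphatase DUSP5 by 0.50. Other FOSL2 probe sets above the filter fell by 0.69 and 0.50, or stood at -0.23 and -0.083 without a call. SPRY1, a relative of SPRY4, rose by 0.27, and was not called without 6 h replicates 1 or 2 or 72 h replicates 1 or 2. SGK1, a kinase induced by glucocorticoids and serum, had signals of 454, 434 and 488 at 6 h, below the 546 to 561 of DMSO, and 154, 160 and 105 at 72 h. It fell by 1.74 (SE 0.12), as 1 of 4 falls among 10 glucocorticoid-responsive and SGK genes. The falls numbered 2 without 6 h replicates 2 or 3 or 72 h replicate 2.

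Matrix, protease and junction genes held many of the larger falls. Of 9 plasminogen and coagulation factors, 8 fell, 0 rose and 1 was not called, with a median of -0.67. After TFPI2 came the inhibitor SERPINE2 (fell by 0.95), the urokinase receptor PLAUR (0.93), thrombomodulin, THBD (0.72), and tissue factor, F3 (0.67). PLAUR had signals of 66.3, 67.7 and 66.3 at 6 h and 30.05, 47.3 and 30.4 at 72 h, with no overlap. Of 37 mesenchymal and extracellular matrix genes, 17 fell, 2 rose and 18 were not called (median -0.24), and with probe sets averaged 11 fell. The metalloprotease gene ADAM19 fell by 1.48, the collagen VI chain gene COL6A1 by 1.45 and the metalloprotease gene MMP7 by 1.27. Other probe sets of ADAM19 and COL6A1 above the filter were not called, at 0.29 for ADAM19 and from -0.37 to 0.11 for COL6A1. With probe sets averaged COL6A1 stood at -0.27 without a call. THBS1, thrombospondin 1, rose by 0.26, but turned to -0.083 with its probe sets averaged and was not called without 6 h replicate 1 (0.16) or 72 h replicates 2 or 3.

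Of 26 YAP and TEAD targets, 2 rose and 7 fell, the falls led by TGM2 and by IGFBP3, a carrier of insulin-like growth factors (fell by 1.70, SE 0.18). Their median of -0.028 lay above that of all genes and was 0.0014 with arrays centred. CCN2, a matricellular protein induced by TGF-beta and YAP, fell by 0.44. Of 26 epithelial junction and keratin genes, 10 fell and 5 rose (median -0.15). After PODXL and CLMP the largest falls were those of the keratin KRT7 (1.00, SE 0.18) and the claudin CLDN4 (0.76), while the mucin MUC1, occludin, OCLN, and plakoglobin, JUP, each rose by 0.45. Another CLDN4 probe set above the filter stood at 0.070 and was not called. KRT7, a marker of ductal cells, had signals of 107, 122 and 126 at 6 h and 85.01, 43.7 and 54.5 at 72 h. Among 13 pancreatic duct genes CA2, carbonic anhydrase 2, also fell by 1.01 and the surface protein gene CD24 rose by 0.50.

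Metabolic lists differed from each other. Of 36 glycolysis and hypoxia genes, 13 fell and 3 rose (median -0.16), or 8 and 1 with arrays centred. The neuronal enolase ENO2 fell by 0.96, the collagen prolyl hydroxylase P4HA2 by 0.93, the pyruvate dehydrogenase kinase PDK1 by 0.67 and NDRG1 by 0.60, while the mitophagy receptor BNIP3L rose by 0.39. The call for NDRG1 ended without 6 h replicates 1 or 2 or 72 h replicates 2 (-0.35) or 3. PDK1 stood at -0.26 with its probe sets averaged and at -0.23 by another probe set above the filter, both without a call. Of 41 oxidative phosphorylation genes, 14 rose and 1 fell, by small amounts (median 0.061), and with arrays centred 6 rose and 0 fell. The ATP synthase subunits ATP5F1D and ATP5F1E rose by 0.37 and 0.28, UQCRB of complex III by 0.28 and NDUFB10 of complex I by 0.27, while NDUFS3 of complex I fell by 0.17, a call that ended without 6 h replicate 1 or 72 h replicate 2. Of 32 ribosome biogenesis genes 0 rose and 12 fell (median -0.11), or 3 with arrays centred, led by RRP9 (fell by 0.52) and the RNA polymerase I subunit POLR1A (0.38). Of 36 ribosomal protein genes 2 rose, 0 fell and 34 were not called, with a median of 0.0075 that turned to -0.043 after cyclic loess. Among 39 lysosome and autophagy genes 9 fell and 3 rose, with the cathepsins CTSL (fell by 0.81) and CTSB (fell by 0.52) in front. The list median of -0.058 turned to 0.013 and 0.020 after quantile normalization and cyclic loess.

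Developmental regulators moved individually. Of 19 HOX genes 7 had risen at 6 h, beside 0.363% of all genes. Between the times 4 rose, 1 fell and 14 were not called (median 0.13). The rises numbered 2 without 6 h replicate 3, 7 without 72 h replicate 3 and 10 after cyclic loess. HOXC4 rose by 0.57 (SE 0.098), HOXC6, HOXC10 and HOXB6 as above, and HOXB2 fell by 0.27. Among 21 other homeobox genes PAX2 rose, and 4 fell (2 without 6 h replicates 2 or 3 or 72 h replicate 2), led by LHX2 (0.82, SE 0.25), PBX3 (0.50) and MSX1 (0.44). After quantile normalization or cyclic loess 5 of these 21 rose and 4 fell. The call for LHX2 ended without 6 h replicates 2 (-0.59) or 3 or 72 h replicate 2 (-0.64). Of 30 Notch, Wnt and Hedgehog genes 6 rose and 7 fell, or 5 and 11 without 72 h replicate 1. FRAT1 and FRAT2, which bind GSK3 and favour Wnt signalling, rose by 0.89 and 0.65, and PTCH1, the Hedgehog receptor and target, by 0.80. The Notch ligand JAG1 and the secreted Wnt antagonist SFRP1 each fell by 0.60. Vesicle genes also moved both ways, with RAB26 up and RAB3B (fell by 1.73, SE 0.17), RAB27A (0.80) and the syntaxin STX1A (0.42) down, and 12 of 16 not called. Among 13 peptide hormone and receptor genes, KISS1R, ADCY9 and EDN1 rose, and GAL and the adenylyl cyclases ADCY3 (fell by 1.11) and ADCY7 (fell by 0.96) fell. Another probe set of ADCY3 also fell, by 0.71, while the other ADCY7 probe set stood at -0.014 and was not called. In the clock list of 14, CLOCK rose by 0.40, and BHLHE40, CIART and PER3 fell by 0.58, 0.52 and 0.44, of which CIART lost the call without 6 h replicates 1 or 3 or 72 h replicate 2 (-0.35), and PER3 without any 1 of the 6 h arrays or 72 h replicates 2 (-0.29) or 3.

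Other lists moved little. Of 42 histone and DNA modifying enzymes 4 fell, 0 rose and 38 were not called, and with 1 of the 6 h or 72 h arrays left out the falls ran from 1 to 8, the most without 72 h replicate 1. After quantile normalization 2 rose and 3 fell, and after cyclic loess 4 rose and 3 fell. Of 11 reference genes 1 rose and 2 fell, HPRT1 (0.27) and GUSB (0.26). Of 10 endocrine and islet genes above the filter 1 rose, SOX4 by 0.15, which turned to -0.073 with probe sets averaged and was not called without 6 h replicates 1 or 2 or 72 h replicates 1 or 3. PDX1 had signals of 19.2, 18.9 and 17.0 at 6 h and 21.3, 15.5 and 26.1 at 72 h, close to the filter on low values. The arrays overlapped and the difference was 0.16 ± 0.17 (limma adjusted p = 0.647 without the filter), with a 95% interval of 0.863 to 1.45 for the ratio of 72 h to 6 h. INS, insulin, and NKX6-1, a beta cell factor, lay below the filter, with mean signals of 7.43 and 10.7 and differences of -0.087 ± 0.117 and 0.071 ± 0.119. Two-sided exact permutation tests gave p = 0.5 for PDX1, p = 1 for INS and p = 0.5 for NKX6-1, where 3 arrays against 3 cannot go below 0.1.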

How the data were processed

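RNA of PANC-1 cells was hybridised to 9 Affymetrix arrays with 54675 probe sets. The authors deposited 1 table of intensity on a linear scale (4.54 to 25052). MAS5 was used per the submitters' processing notes, with version and scaling not given in the sources used here. Equal values on several arrays occurred for 59.2% of probe sets, which can make the spread within a group too small. The platform's annotation gave a symbol to 41091 probe sets, several to 1801 and none to 11777, and the 62 controls were dropped.

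Deposited signals were log2 transformed without rescaling or pseudocount. Each of 19775 genes was represented by its brightest probe set, and 12678 genes with a mean of at least 17.8 were tested. limma 3.58.1 (R 4.3.3) was fitted to all 9 arrays with a mean-variance trend, which leaves 6 residual degrees of freedom, and a gene was called at an adjusted p below 0.05. The fit was tested on simulated data with the wider spread of the 72 h arrays. There the share of false calls was 14.9% with equal spread, as used here, and 6.2% with weights by group, beside the threshold of 0.05. In it 200 of 12678 genes were changed, far fewer than were called here, so these shares need not carry over to the data. For a gene's further probe sets the adjustment ran over the whole array. The members, the gene lists and the rule for naming genes were chosen with earlier results of these data known. Named were PDX1, INS and NKX6-1, the early genes, the 10 largest rises and falls between the times and among late genes, and, per list, the 4 or fewer called members with the largest difference plus the largest against the list's main direction. Symbols of uncharacterised loci were passed over. Alternatives were other scalings, weights by group, probe set averaging, other filters, a pseudocount of 16, no trend, a replicate block, the 6 arrays alone and leaving out each array.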

Additional observations from a re-analysis of the deposited data

How the results depend on the processing

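The number of arrays limits all counts. Genes called between the times numbered 1782 with arrays centred on their medians (609 higher, 1173 lower) and 2005 with probe sets averaged (394 higher). Higher calls were 1587 after cyclic loess, 1521 after quantile normalization, 600 with weights by group and 599 without the trend. Against the 60, 30, 23 and 7 genes reported, those called at 6 h, grown, not told apart and faded were 122, 51, 57 and 14 with weights by group, 22, 12, 8 and 2 with probe sets averaged, and 23, 11, 10 and 2 without the trend. Centring gave 37 called at 6 h, 13 grown, 2 faded and 1445 late. Cyclic loess gave 47 grown, and no filter 18. With 1 array left out, genes called between the times ran from 2125 to 4000 (667 to 914 higher, 1438 to 3193 lower), those called at 6 h from 28 to 71, grown from 11 to 35, not told apart from 13 to 23, faded from 2 to 13, and genes that moved late from 1866 to 3421. The extremes of 4000 called, 3193 lower, 35 grown, 13 faded, 71 called at 6 h and 3421 late came without 72 h replicate 1. With probe sets averaged MIDN, VEGFA, EDN1, RFC5, THBS1 and SOX4 stood at -0.121, -0.0459, -0.0287, -0.0596, -0.0832 and -0.0728. The causes were not tested. Of 188 named genes called, 136 were called in every alternative run. The replicate number as a block gave 2840 called and 25 grown. Deviations of arrays with the same number at 6 h and 72 h correlated at -0.211, 0.092 and -0.259. The values were 0.202, 0.171 and -0.186 for DMSO with 6 h, and -0.072, 0.159 and 0.155 for DMSO with 72 h. Deviations from means of 3 arrays cannot settle whether the numbers pair the arrays, which was not tested. The 6 arrays alone gave 2361 called (772 higher, 1589 lower) and no courses.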
